A study of Arabidopsis thaliana with 8 samples.

Results

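The plastid genome of Arabidopsis thaliana encodes the core subunits of both photosystems, and 10 of these genes are described here: psaA, psaB and psaC of photosystem I, and psbA, psbB, psbC, psbD, psbE, psbF and psbH of photosystem II. They were chosen by symbol, as the probe sets that the array annotation pairs with these plastid genes. The rule used no measured value, but earlier results of these data were known when the list was made. Each had 1 probe set on the Affymetrix ATH1 array. They are 10 of 69 plastid genes named through a probe set with a single gene, on an array of 22746 probe sets without controls. All 10 were among the 11373 probe sets kept for testing, the 50% with the highest mean signal.

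The aerial parts of 10-day-old seedlings were compared between the wild type (WT) and the eif3h mutant. The mutant carries the eif3h-1 allele, in which an inserted T-DNA leaves the h subunit of the translation initiation factor eIF3 without its carboxy-terminal end, and it is the only mutant allele measured. All seedlings grew under continuous light on sucrose-supplemented agar, and plants were pooled for each extract. Extracts were separated on sucrose gradients into polysomal RNA (PL, fractions with several ribosomes per mRNA) and non-polysomal RNA (NP, free mRNA and monosomes). With 2 genotypes, 2 fractions and 2 replicates there were 8 arrays, and each replicate was an independent RNA preparation on its own day.

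Photosystem II takes electrons from water and photosystem I raises them to the energy needed to reduce ferredoxin. Their core subunits are made inside the chloroplast, on ribosomes of the bacterial type, from mRNAs that are often transcribed together in polycistronic units, whereas the outer antenna proteins and many small subunits are encoded in the nucleus and translated in the cytosol. The factor eIF3 acts on cytosolic ribosomes, and so does cycloheximide, which the extraction buffer contained. A plastid mRNA found deep in the gradient is usually carried there by plastid ribosomes, but a gradient does not tell ribosomes from other heavy particles. Most plastid mRNAs lack a stable poly(A) tail, and the methods do not name the primer for first-strand synthesis.

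The deposited values are MAS 5.0 signal intensities, scaled so that every array had nearly the same trimmed mean (500.037 to 500.058), and array medians lay between 185.8 and 277.0. The mRNA of the mutated gene, TIF3H1, had signals of 1277 and 1149 in WT PL and 213 and 192 in eif3h PL (difference -2.58 on the log2 scale, adjusted p = 0.000357). In NP its signals were 2160 and 1733 in WT and 1897 and 1950 in the mutant (difference -0.01, adjusted p = 0.982), so that the labels were borne out in the PL arrays and the NP signal did not separate the genotypes. On which side of the insertion its probes lie was not stated. Of the markers listed for the tissue, the photosynthetic gene RCA was high on all arrays (14761 to 36163), the root gene PYK10 was present (1813 to 9268, higher in PL) and the root hair gene EXPA7 was low (20 to 135). The other 8 markers had no named probe set here. Each replicate number coincided with a scan day and a scanner, on which all 4 groups were represented.

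Plastid mRNAs as a whole gave more signal in NP than in PL. The 69 named plastid genes took 4.77% and 4.63% of all signal on the WT PL arrays and 8.58% and 7.64% on the WT NP arrays. In eif3h the shares were 2.87% and 4.13% in PL and 11.7% and 9.81% in NP. The 10 core genes alone took 0.76% and 0.78% in WT PL, 0.33% and 0.55% in eif3h PL, 1.36% and 1.06% in WT NP, and 1.69% and 1.54% in eif3h NP. In both sets the genotypes did not overlap in either fraction. Whole shoots were extracted, so the number of cells of a type and the RNA per cell behind a signal cannot be told apart.

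Photosystem I binds its primary electron donor in a dimer of the large proteins encoded by psaA and psaB. The psaA signal (probe set 245007_at) was 6318 and 4468 in WT PL but 345 and 364 in WT NP, a PL/NP ratio of 18.3 in the first gradient and 12.3 in the second. In eif3h it was 473 and 1002 in PL and 496 and 418 in NP. WT PL thus stood apart from the 6 other arrays, none of which was above 1002. The NP arrays of the genotypes did not overlap either, but their step was far smaller. The psaB signal (245006_at) was among the most intense on the array and was higher in NP than in PL in both genotypes, with 34409 and 45179 in WT PL, 66895 and 69771 in WT NP, 23001 and 39265 in eif3h PL, and 92777 and 78307 in eif3h NP. Its NP values did not overlap between the genotypes, and its PL values did.

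The third photosystem I gene, psaC, encodes the subunit that carries the terminal iron-sulfur clusters. Its signal (244932_at) was 5945 and 1863 in WT PL, 11615 and 6154 in WT NP, 883 and 2104 in eif3h PL, and 17379 and 6514 in eif3h NP. NP exceeded PL in each gradient, but the replicates of every group were far apart, and the genotypes overlapped in both fractions. The eif3h PL array of replicate 1 held the lowest psaC value, as it did for 9 of the 10 genes (all but psaA).

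The reaction centre of photosystem II is formed by D1, encoded by psbA, and D2, encoded by psbD. D1 is damaged by light and constantly replaced, so that psbA is among the most translated plastid mRNAs in green leaves. The psbA signal (245047_at) was 32583 and 21585 in WT PL, 78204 and 21619 in WT NP, 4525 and 15624 in eif3h PL, and 79779 and 75211 in eif3h NP. The WT NP replicates differed 3.62-fold, and the value of the first was the highest of any probe set on that array. PL was lower in both mutant arrays than in both WT arrays, while NP overlapped. The psbD signal (245002_at) was 2599 and 2436 in WT PL, 636 and 724 in WT NP, 566 and 1347 in eif3h PL, and 958 and 975 in eif3h NP. As for psaA, WT PL was the highest group without overlap, and none of the other 6 arrays was above 1347.

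The inner antennae CP47 and CP43, which pass excitation energy to the reaction centre, are encoded by psbB and psbC. The psbB signal (244972_at) was 1504 and 3360 in WT PL, 790 and 3153 in WT NP, 192 and 2264 in eif3h PL, and 1898 and 3358 in eif3h NP. Every group had its lower value in replicate 1, and no pair of groups next to each other in the order of means was free of overlap. The psbC signal (245003_at) was 8842 and 13506 in WT PL, 8217 and 12309 in WT NP, 2408 and 10353 in eif3h PL, and 17567 and 21035 in eif3h NP. In WT the fractions were nearly level, and in eif3h NP was above all other arrays.

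Cytochrome b559, a heme protein at the edge of the reaction centre, is made of the products of psbE and psbF. The psbE signal (244964_at) was 9248 and 12003 in WT PL, 21787 and 18382 in WT NP, 6104 and 6766 in eif3h PL, and 20708 and 14088 in eif3h NP, so that WT and eif3h overlapped in NP only. The psbF signal (244963_at) was 22208 and 25559 in WT PL, 53526 and 58332 in WT NP, 15438 and 15798 in eif3h PL, and 67950 and 62606 in eif3h NP. For psbF all 4 groups were separated from each other, in the order eif3h NP, WT NP, WT PL, eif3h PL. The psbH gene encodes a phosphoprotein of the photosystem II core, and its signal (244975_at) was 6676 and 4201 in WT PL, 10231 and 3962 in WT NP, 2183 and 3107 in eif3h PL, and 10284 and 6282 in eif3h NP. Here eif3h PL was below all other arrays.

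**Figure D1:**
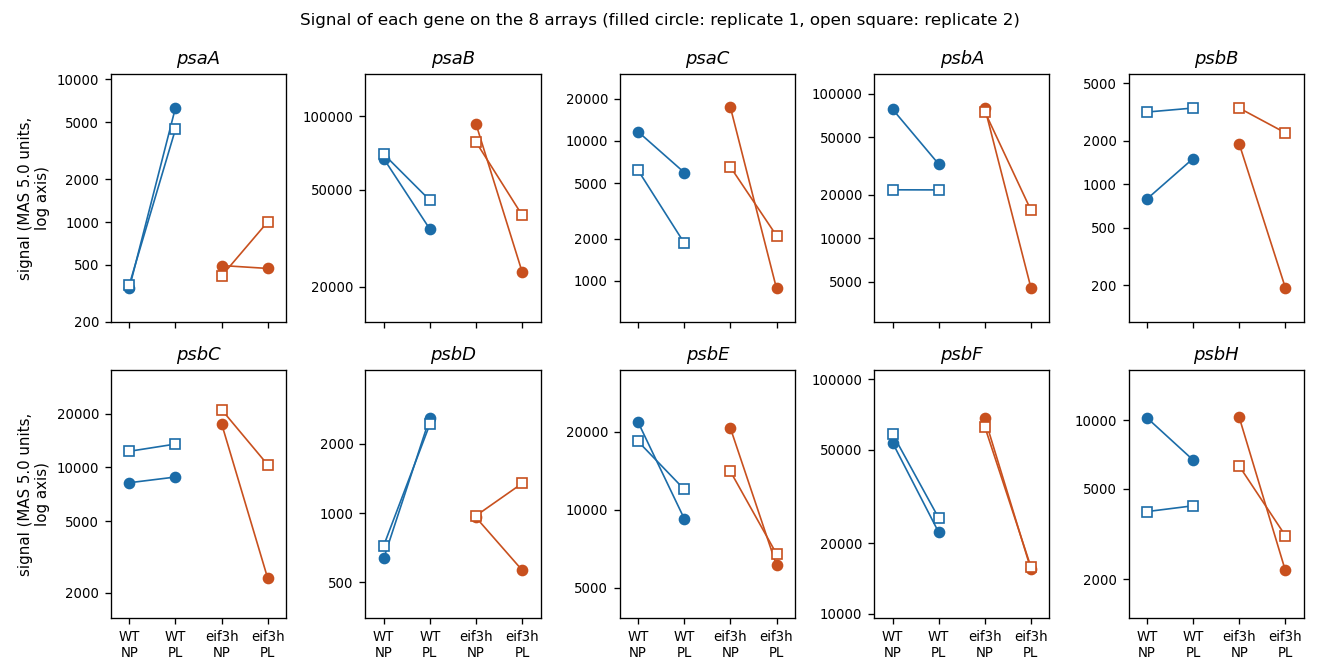
MAS 5.0 signal of the 10 genes on the 8 arrays, each panel with its own logarithmic axis. Blue marks WT and orange eif3h, circles replicate 1 and squares replicate 2, and lines join the fractions of the same gradient. For psaA and psbD the WT PL arrays stand above the rest, and for 9 of the 10 genes the lowest value is the eif3h PL array of replicate 1.

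The translation state of a gene is log2(PL/NP) within a gradient, so that a positive value means more signal in polysomal than in non-polysomal RNA. In WT the 10 genes covered a wide span. psaA was highest in both gradients (3.62 in the second), and the lowest values were -1.27 for psbF in the first gradient and -1.72 for psaC in the second. With adjusted p from limma under 0.05 as the threshold, psaA (mean 3.91, SE 0.34, adjusted p = 0.000304) and psbD (1.89, SE 0.31, adjusted p = 0.00278) were more polysomal, 2 of 10 where 15.0% of all tested probe sets passed in that direction. psbF (-1.23, adjusted p = 0.00231), psbE (-0.93, adjusted p = 0.0204) and psaB (-0.79, adjusted p = 0.044) were less polysomal, 3 of 10 against 15.1% of all. Of the 57 other tested plastid genes, 24 passed as less polysomal. The psaB value was 0.024 under quantile normalization of the arrays. It did not pass with median centring of the arrays (adjusted p = 0.113) or without the signal filter (adjusted p = 0.294). Nor did it pass without the replicate block (adjusted p = 0.0989) or without the variance trend (adjusted p = 0.0563). It was -0.63 without WT replicate 1 and -0.96 without WT replicate 2. psbE did not pass without WT replicate 1 (-0.61, adjusted p = 0.235) or without the signal filter (adjusted p = 0.0641). By sign alone, 4 genes were positive in both WT gradients (psaA, psbB, psbC and psbD, against 40.0% of all probe sets) and 5 were negative in both (psaB, psaC, psbA, psbE and psbF, against 39.8%). psbH changed sign between the gradients (-0.62 and 0.085).

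Among the genes that did not pass in WT, psaC had -1.35 (SE 0.57, adjusted p = 0.102), psbA -0.63 (adjusted p = 0.486), psbB 0.51 (adjusted p = 0.495), psbH -0.27 (adjusted p = 0.613) and psbC 0.12 (adjusted p = 0.839). The psbA gradients gave -1.26 and -0.00, so that its WT value rested on the first. The order of the genes was much the same in both WT gradients (Pearson's r = 0.93 and Spearman's rho = 0.84 across the 10 genes, which share libraries and in part transcripts).

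In the eif3h mutant nearly all of these mRNAs had more signal in NP than in PL. Of the 10, 8 passed the test as less polysomal, against 22.2% of all tested probe sets and 48 of the 57 other tested plastid genes. The same 8 core genes were negative in both gradients (47.1% of all). The lowest were psbA with -3.20 (SE 0.64, adjusted p = 0.00458, gradients -4.14 and -2.27) and psaC with -2.97 (SE 0.57, adjusted p = 0.00382, gradients -4.30 and -1.63). psbF (-2.06), psbC (-1.94), psbB (-1.94), psbH (-1.63), psaB (-1.50) and psbE (-1.41) followed, with adjusted p from 0.000229 for psbF to 0.0179 for psbB. The psbB gradients lay at -3.30 and -0.57, and its adjusted p was 0.0506 without the first of them, 0.0559 with median centring of the arrays and 0.22 without the replicate block. Under quantile normalization psaB had -0.53 and did not pass (adjusted p = 0.0997). The exceptions were the most polysomal genes of WT: psaA had 0.60 (gradients -0.07 and 1.26, adjusted p = 0.185) and psbD -0.15 (gradients -0.76 and 0.47, adjusted p = 0.729). Both kept the top of the order, and both changed sign with the gradient. With median centring psaA had 1.11 and passed as more polysomal (adjusted p = 0.0289), where 3895 of 11373 probe sets did.

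**Figure D2:**
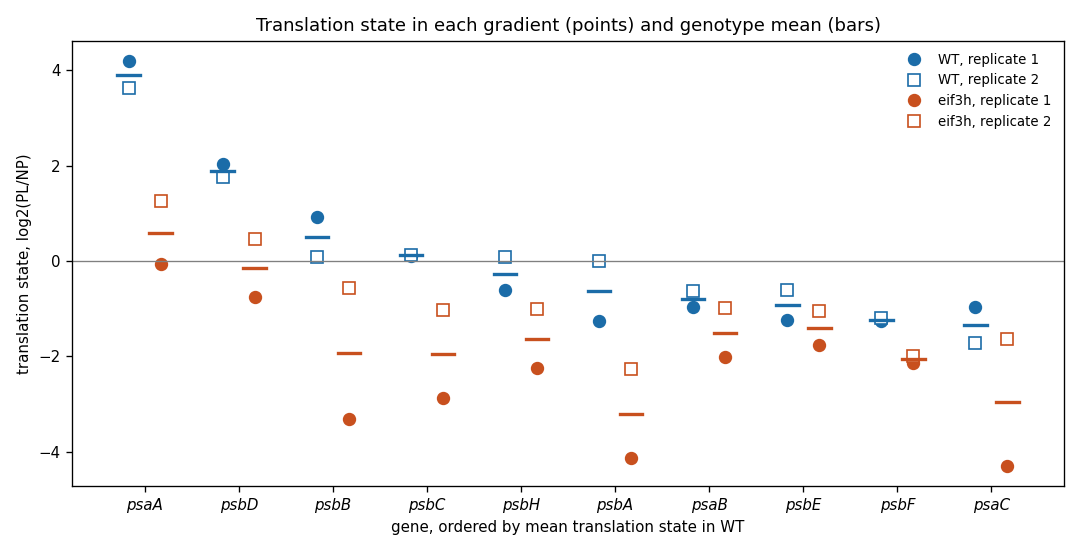
Translation state, log2(PL/NP), of the 10 genes in the WT (blue) and eif3h (orange) gradients, with circles for replicate 1, squares for replicate 2 and bars for the genotype means. Genes are ordered by their WT mean, from 3.91 for psaA to -1.35 for psaC, and the eif3h mean is below the WT mean for each.

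The question the design asks is how the translation state changes with the mutation, and here all 10 genes had a negative mean change (the eif3h value minus the WT value, on the log2 scale). Their median was -1.83, against -0.12 for all tested probe sets. Of the 10, 9 were negative in both replicates (41.4% of all), and 5 were under -1 in both (psaA, psbA, psbC, psbD and psbH, against 1.79% of all). For 8 genes, all but psaC and psbE, both eif3h gradients had a lower translation state than both WT gradients, against 32.2% of all. These shares describe genes of the same organelle genome that share transcripts and arrays, and they are not independent of each other. Plastid genes outside the 10 were also under -1 in both replicates, among them rbcL, ndhH and ycf4.

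None of the 10 passed the test for this change in the limma fit with the replicate as a block, in which 4 of 11373 probe sets passed downward (0.0352%). At an unadjusted p under 0.05, 7 of the 10 and 962 of all probe sets were lower. When the gradient replaced the replicate as the block, 70 probe sets passed downward (0.615%), and 4 of the core genes were among them: psaA, psbD, psbA and psbC. Which of the designs is used therefore decides the call for these 4.

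The change was largest for psaA, -3.31 (SE 0.48, a 9.92-fold lower PL/NP ratio), with -4.26 in replicate 1 and -2.36 in replicate 2 (adjusted p = 0.0705, and 0.00352 with the gradient block). psbA followed with -2.57 (SE 0.90, replicates -2.88 and -2.27, adjusted p = 0.268 and 0.0373). psbB had -2.45 (SE 0.74), but its replicates were -4.23 and -0.66 (adjusted p = 0.224 and 0.0669). These replicates differ by more than the value itself, whereas those of psbA differ by 0.61. The psbB value of replicate 1 rested on an eif3h PL signal of 192, close to the median of that array (185.8).

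The psbD and psbC genes, which lie next to each other and overlap, had almost the same change. It was -2.04 for psbD (SE 0.44, replicates -2.79 and -1.29, adjusted p = 0.154 and 0.0227) and -2.06 for psbC (SE 0.53, replicates -2.97 and -1.16, adjusted p = 0.199 and 0.0431). psaC had -1.62 (SE 0.80), which came from replicate 1 alone (replicates -3.33 and 0.09, adjusted p = 0.394 and 0.169). psbH had -1.36 (SE 0.51, replicates -1.62 and -1.10, adjusted p = 0.285 and 0.08).

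The 3 smallest changes were those of psbF, psaB and psbE, and the replicates of psbF and psbE were the closest of the 10 genes. psbF had -0.83 (SE 0.27, replicates -0.87 and -0.80, adjusted p = 0.238 and 0.159), psaB -0.71 (SE 0.36, replicates -1.05 and -0.37, adjusted p = 0.403 and 0.337) and psbE -0.48 (SE 0.35, replicates -0.53 and -0.44, adjusted p = 0.541 and 0.42). In all 10 genes the change was more negative in replicate 1 than in replicate 2, with medians of -2.83 and -0.95. All probe sets together did not show this gap (medians -0.11 and -0.13), but the 57 other plastid genes did (-1.58 and -0.40). Without eif3h replicate 1 the median of the core genes was -0.92 and without eif3h replicate 2 it was -2.80, so the size of the change depends on which mutant gradient is read, and its sign does not.

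**Figure D3:**
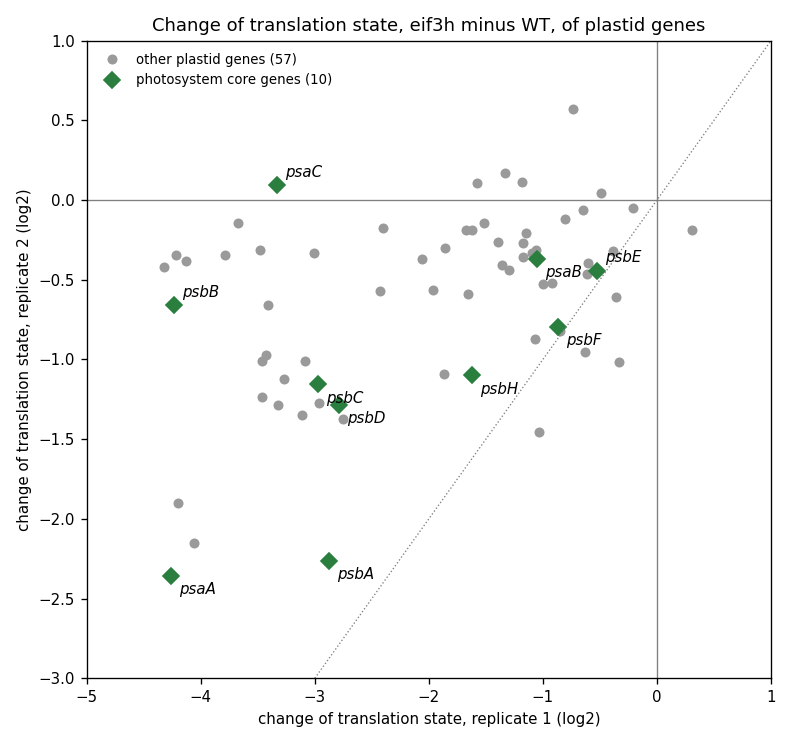
Change of translation state (eif3h minus WT, log2) in replicate 1 on the horizontal axis and replicate 2 on the vertical axis, for the 10 photosystem core genes (green diamonds) and the 57 other tested plastid genes (grey circles), with the diagonal dotted. All 10 core genes lie left of the diagonal, since replicate 1 gave the more negative change, and only psaC is above 0 in replicate 2.

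A change of PL/NP can come from either fraction, so the genotypes were also compared within each. In polysomal RNA all 10 genes had a negative mean difference (eif3h minus WT, median -1.21 against -0.05 for all probe sets). The median was -0.52 without eif3h replicate 1 and -2.01 without eif3h replicate 2. psaA fell by 2.95 on the log2 scale (SE 0.34, adjusted p = 0.00153) and psbD by 1.53 (SE 0.31, adjusted p = 0.0151), and these 2 of 10 passed where 7.61% of all probe sets did. The psbD call was lost without WT replicate 1 (adjusted p = 0.0971) and without the replicate block (adjusted p = 0.0712). The others ranged from -1.77 for psbB (adjusted p = 0.0553) to -0.39 for psaB (adjusted p = 0.346). For 6 genes (psaA, psbA, psbD, psbE, psbF and psbH) both mutant PL arrays were below both WT PL arrays, against 29.0% of all. In replicate 1 each of the 10 genes was lower in eif3h PL than in WT PL, and in replicate 2 each but psaC was.

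In non-polysomal RNA the mean differences ran the other way and were smaller. The mean was higher in eif3h for 9 genes and lower for psbE, with a median of 0.35 against 0.10 for all probe sets, and none of the 10 passed upward (8.45% of all probe sets did). At an unadjusted p under 0.05 only psbC was higher (0.93, SE 0.38, adjusted p = 0.117). For 5 genes (psaA, psaB, psbC, psbD and psbF) both mutant NP arrays were above both WT NP arrays, against 29.2% of all. The psbA difference of 0.91 (SE 0.64) rested on replicate 2, with 0.03 in replicate 1 and 1.80 in replicate 2. When each array was centred on its own median, psbF turned to -0.028, and under quantile normalization psbE turned to 0.0012. For each of the 10 genes the mean difference was larger in size in PL than in NP. In replicate 2 alone it was larger in NP for psbA (PL -0.47, NP 1.80), psbC (-0.38, 0.77) and psbH (-0.44, 0.665).

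Several of these genes share a transcription unit, and in some units neighbours had clearly different translation states. psaA and psaB are transcribed together with rps14, yet in WT psaA was above psaB by 5.16 in the first gradient and 4.24 in the second, and in eif3h by 1.94 and 2.26. The change differed accordingly, with a psaA minus psaB difference of -3.21 and -1.99. The rps14 mRNA, which was under the signal limit for testing, had translation states of -1.14 and -1.55 in WT, close to psaB and far from psaA. In each unit the values are those of probe sets, which can also detect processed pieces of a common transcript.

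In the psbD-psbC-psbZ unit the translation state decreased along the unit in WT, from 1.89 for psbD to 0.12 for psbC and -0.80 for psbZ, which encodes a small photosystem II subunit. psbD was above psbC by 1.93 and 1.62 in the WT gradients and by 2.11 and 1.49 in the eif3h gradients, and their changes differed by only 0.18 and -0.13. Here the neighbours differed in translation state and had nearly equal changes. In the psbB-psbT-psbH-petB-petD unit psbB was highest in WT (0.51) and petD, which encodes subunit IV of the cytochrome b6f complex, lowest (-1.22). All 5 genes of that unit had a negative change in both replicates, from -4.23 to -1.15 in replicate 1 and from -1.10 to -0.21 in replicate 2.

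The psbE-psbF-psbL-psbJ unit had the smallest changes of these units. Its 4 genes had WT translation states between -1.65 and -0.93 and changes between -0.92 and -0.05 over both replicates. In the unit of NDH genes that holds psaC, the values of psaC were close to those of its neighbour ndhE, which encodes a subunit of the plastid NADH dehydrogenase-like complex. The difference between psaC and ndhE was -0.15 and -0.23 in the WT gradients and 0.19 and 0.0049 in the eif3h gradients. Against ndhD, its neighbour on the other side, psaC stood at 0.22 and -0.44 in the WT gradients and at -1.43 and -0.16 in the eif3h gradients, so that the gap was widest in eif3h replicate 1. All 7 genes of this unit had a negative change in replicate 1, and 5 had in replicate 2.

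**Figure D4:**
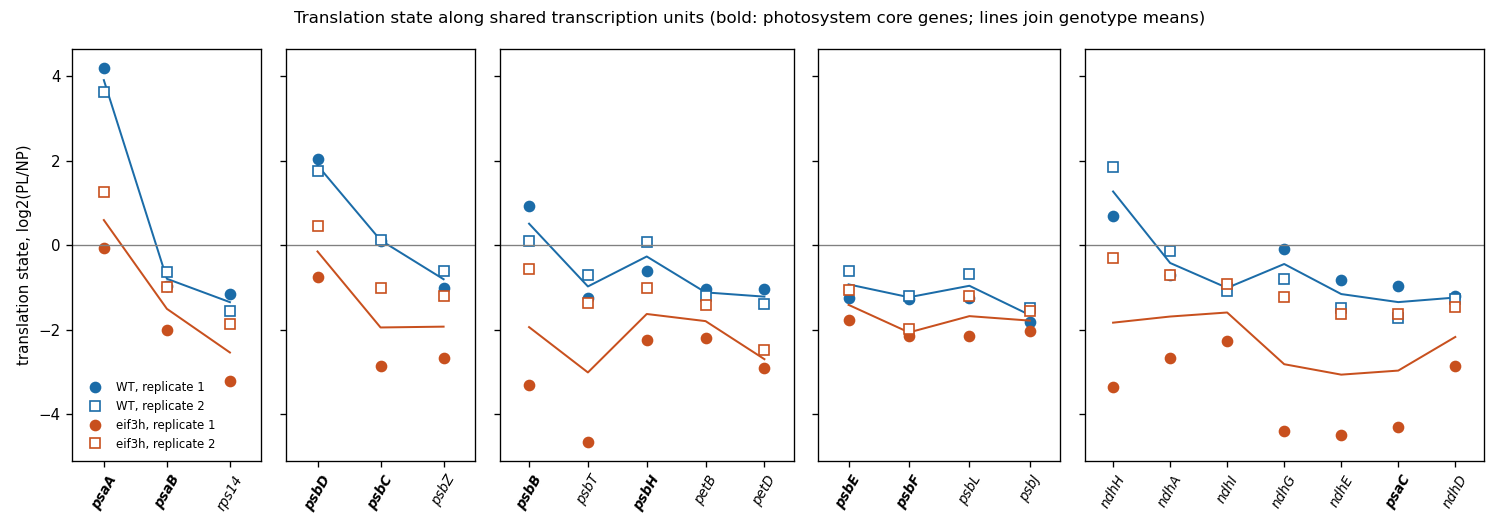
Translation state, log2(PL/NP), of genes in the order of 5 shared plastid transcription units, with core genes in bold, WT in blue and eif3h in orange, circles for replicate 1 and squares for replicate 2, and lines joining genotype means. The psaA value stands far above psaB and rps14 in WT, and the psbE unit shows the smallest distance between genotypes.

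The remaining plastid genes had the same sign of change. Of 57 other tested plastid genes 56 had a negative change, with a median of -0.93, and none passed with the replicate block, while ycf4 and rbcL passed with the gradient block. Relative to the median of these 57 in the same replicate, psaA stood at -2.69 in replicate 1 and -1.96 in replicate 2, with 1 and 0 of the 57 below it. psbA, psbC and psbD were below that median in both replicates, with psbC at -1.40 and -0.76 on this relative scale. psbB (-2.66 and -0.27) and psbH (-0.043 and -0.71) were also below it in both replicates, but came within 0.3 of it in 1 replicate. psaB was above it in both (0.52 and 0.026), and psaC, psbE and psbF fell on different sides of it in the replicates. The place of these 6 genes among plastid genes was not settled by these arrays.

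By function, the 12 other plastid photosystem genes had a median change of -0.77, with all 12 negative. The lowest were the assembly factor genes ycf4 (-2.23) and ycf3 (-2.07) and the highest psbJ (-0.13) and psbK (-0.08), which encode small photosystem II subunits. All 12 genes of the cytochrome b6f complex and ATP synthase were negative (median -0.88), with atpF (-2.35) and atpI (-2.23) lowest and atpE (-0.50) and atpB (-0.23) highest. The 10 NDH genes had a median of -1.59, with ndhH (-3.10) and ndhG (-2.37) lowest and ndhI (-0.58) and ndhC (-0.54) highest. Of the 23 genes for Rubisco, gene expression and other functions, 22 were negative (median -0.88). Lowest were rbcL, the large subunit of Rubisco (-3.05), and the ribosomal protein gene rpl14 (-2.28), and highest were rps4 (-0.36) and rpl33 (0.06). None of these lists had a gene past the test with the replicate block.

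Nuclear genes for the same complexes did not share this direction. Of 25 listed nuclear photosystem subunit genes, 5 had a named probe set here, and 4 of these 5 had a positive change (median 0.45), none past the test. The highest were PSAN (0.65) and PSBY (0.51) and the lowest PSBW (0.10) and PSAE-1 (-0.07). In eif3h 3 of the 5 passed as more polysomal, against 16.9% of all probe sets. Of these 5, 4 had a negative mean difference in PL and all 5 in NP. The 3 nuclear light-harvesting genes measured, of 18 listed, had changes of 1.11 for LHCB4.2, 0.96 for LHCB4.1 and 0.07 for LHCB4.3, none past the test. Of the 3, 2 passed as lower in eif3h NP, against 8.65% of all probe sets. In PL all 3 had a negative mean difference, and 1 passed as lower, against 7.61% of all. LHCB4.2 differed by -1.63 in PL and -2.74 in NP, so its positive change came with lower signal in both fractions. Nuclear factors that act on plastid photosystem mRNAs or proteins had mean changes close to 0 (3 of 17 listed). PAM68 stood at -0.25, LPA1 at -0.15 and ATAB2, which is needed for translation of photosystem mRNAs, at -0.10. The LPA1 replicates lay far apart, at -1.21 and 0.92.

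Genes of the mitochondrial genome had negative changes as well, but with another pattern in the separate fractions. The 3 tested mitochondrial genes, of 11 named, had changes of -1.58 (cox1), -1.08 (nad4) and -0.87 (nad1), none past the test with the replicate block, and cox1 passed with the gradient block (adjusted p = 0.0275). They were already far on the non-polysomal side in WT, with a median translation state of -3.28. In NP all 3 were higher in eif3h (median difference 1.99), and 2 passed, against 8.45% of all probe sets. In PL 2 were higher and 1 was lower (median difference 0.41). The core genes had their larger mean differences in PL, though psbA, psbC and psbH did not in replicate 2 alone.

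Within the core genes and within plastid genes in general, the change was more negative where the mean signal was lower. Across the 10 core genes the mean log2 signal and the mean change had r = 0.63 (Spearman's rho = 0.59), and across all 67 tested plastid genes r = 0.63 (rho = 0.66). The relation was weaker in replicate 2, with r = 0.23 across the 10 and 0.42 across the 67. All points share the same arrays, and the part of signal level in the change was not tested.

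The 10 genes did not all share a common profile over the 8 arrays. Each gene's log2 signal was compared with the mean of the other 9, and r was from 0.64 to 0.87 for 8 of them, 0.29 for psbD and -0.07 for psaA. The probe sets outside the list whose log2 signal followed the mean profile of the core genes most closely were those of GT2 (r = 0.95), GLR3.3 (0.95), ycf4 (0.95), rbcL (0.94) and ndhG (0.94), over 8 arrays and 5962 named candidates. GT2 and GLR3.3 are nuclear genes, for a trihelix DNA-binding protein and a glutamate receptor-like channel. Of the 50 closest, 13 were plastid genes, of 57 among the candidates.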

How the data were processed

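For 8 ATH1 arrays, the authors corrected background and scaled with MAS5, and each deposited value is a linear signal intensity of a probe set. The deposited experiment records (unit other) were read only for scan day and scanner. Names came from the platform table, matched to RefSeq genes of TAIR10.1 (13436 with 1 gene). TIF3H1 was named through the study's gene list. The 64 control probe sets were left out, no offset was added before log2, and the upper 50% by mean log2 signal were tested in R 4.3.3 with limma 3.58.1 (lmFit, eBayes with a variance trend, 4 groups and the replicate as a block, two-sided, Benjamini-Hochberg over 11373 probe sets, threshold 0.05).

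The replicate numbers pair the samples: deviations of any pair of groups correlated with r from 0.33 to 0.68. The highest were PL with NP of the same genotype (0.68 in WT and 0.52 in eif3h), and pairs across genotypes reached at most 0.40. Each number stands for its own day of RNA preparation, its own scan day and its own scanner. The replicate block does not model the closer pairing of PL and NP within a gradient. A gradient block, which does, was the alternative design, without a replicate block. The fit was tested on simulated data in which the noise of each array was independent. Such data cannot decide between the replicate block and the gradient block, since they lack the pairing of PL and NP. The number of arrays, 2 per group, limits the precision, and detection calls were not used.

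The core genes and the other lists were chosen with earlier results of these data known. All core genes are named. Of other lists, the 2 highest and 2 lowest changes are named, and for likeness the 5 highest r. No sequence is shown.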

Additional observations from a re-analysis of the deposited data

Results flagged for a closer look

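The translation states of psbB and psbC, the inner antenna genes of photosystem II, were above 0 in both WT gradients and below 0 in both eif3h gradients. For psbB they were 0.93 and 0.09 in WT and -3.30 and -0.57 in eif3h, a mean change of -2.45. For psbC they were 0.11 and 0.13 in WT and -2.87 and -1.02 in eif3h, a mean change of -2.06. Tested by limma as the difference between the genotypes, neither passed with the replicate block (adjusted p = 0.224 for psbB and 0.199 for psbC), and psbC passed with the gradient block (adjusted p = 0.0431, against 0.0669 for psbB). The WT values of both genes were close to 0 in at least 1 gradient.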

How the results depend on the processing

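The median change of the 10 core genes was negative under every alternative run, from -2.80 to -0.92. With each array centred on its median the median change of all probe sets moved from -0.12 to 0.24, and with quantile normalization to 0.0018. The median of the core genes minus that of all probe sets was -1.71 as deposited and -1.80 after quantile normalization. The number of core genes past the test for the change was 0 with the deposited scaling and replicate block, 1 (psaA) with median centring and 4 with the gradient block, and 0 to 8 without 1 replicate. Fits without 1 replicate had 1 residual degree of freedom and leave a lone gradient assumed to vary like the rest. Over all probe sets 2 passed upward and 4 downward, against 35 and 5 with median centring, 0 and 1 with quantile normalization, 116 and 70 with the gradient block, 0 and 0 with no filter or no variance trend, and up to 523 and 394 without 1 replicate.

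Of the translation states in WT, 5 core genes passed, where 1709 of all 11373 probe sets passed upward and 1714 downward. Without the signal filter 3 core genes passed, where 1415 and 1474 of 22746 probe sets did. Without 1 replicate the median of the core genes ranged from -0.79 to 0.041. In WT psaB changed sign with quantile normalization (0.024), and without 1 WT replicate psbH ranged from -0.62 to 0.085. In eif3h psbD was 0.36 with median centring and ranged from -0.76 to 0.47 without 1 replicate, and psaA ranged from -0.068 to 1.26. In polysomal RNA 2 core genes passed, 4 with quantile normalization and 1 to 9 without 1 replicate, where the median ranged from -2.01 to -0.52. In non-polysomal RNA 0 core genes passed, where 961 of 11373 probe sets passed upward and 984 downward. The median of the core genes there was 0.35, 0.098 with median centring, and 0.21 to 0.74 without 1 replicate. There psbE was 0.0012 with quantile normalization and psbF -0.028 with median centring. Without 1 replicate the ranges that crossed 0 were -0.54 to 0.082 for psbE, -0.086 to 0.75 for psaC, -0.44 to 2.27 for psbA and -0.30 to 0.97 for psbH. The cause was not tested.

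Median centring also moved the split of higher and lower calls over all probe sets, from 1709 and 1714 to 2240 and 1266 in WT, from 1925 and 2529 to 3895 and 968 in eif3h, from 673 and 865 to 898 and 599 in polysomal RNA and from 961 and 984 to 412 and 1721 in non-polysomal RNA. With no replicate block the change of translation state was past the test for 0 probe sets in either direction, and in polysomal RNA 1 core gene (psaA) passed in place of 2. Without this pairing the calls were 838 and 895 in WT, 1195 and 1468 in eif3h, 111 and 190 in polysomal RNA and 174 and 320 in non-polysomal RNA.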
